A study of Mus musculus with 4 samples.

Results

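The genes described here are those of the proximal end of the mouse X chromosome, whose start lies between 0 and 10 Mb of X in the genome build mm9. Of the 22691 genes of the deposited table, 97 lay in this window, and 9 of the Ssx family were left out, which gave 88 genes. The rule used position and gene symbol, and no expression or allele value. The cells were mouse embryonic fibroblasts from female fetuses at E13.5, from C57BL6/J (B6) mothers and fathers that were F1 hybrids of JF1, a Japanese fancy mouse strain, and B6. Both groups carried Xist deltaA on 1 X, per the genotype label Xist deltaA/+, and the series' design text places this mutation in the mothers. WT was Smchd1 +/+ and MD1 was Smchd1 MD1/MD1, each with 2 libraries. MD1 is a loss-of-function allele of Smchd1. The labels do not tell if replicates are different fetuses, and p-values then reflect only the spread between these libraries, which may be technical.

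Female mammals silence an X chromosome in each cell. The Xist RNA coats the chosen X, and repressive chromatin marks and DNA methylation then keep its genes silent. The A repeat of Xist is needed for silencing, so an X that carries deltaA remains active. Here this is the maternal B6 X, and the silenced X is the JF1 copy from the father. SmcHD1, a noncanonical SMC protein, accumulates on the silenced X and is known for its role in keeping it silent. The proximal end of the mouse X holds families of testis-expressed genes, a dense stretch from Ppp1r3f to Ftsj1 and a sparser stretch with genes such as Cybb and Otc. The dense stretch holds housekeeping genes and also tissue-restricted genes such as Foxp3, Gata1 and Was.

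Reads that overlap a variant between the strains were assigned to B6 or JF1 in the deposited table, and the paternal share is the JF1 percentage of these allele-specific reads. X-linked allele-specific reads totalled 521768 to 806626 per library, of which 16919 to 29276 fell on the 88 genes. Smchd1 had a mean FPKM (fragments per kilobase of transcript, scaled to sequencing depth) of 14.7 in WT and 1.94 in MD1, and the paternal share of Xist was 99.8% to 99.9% in each library. All 10 fibroblast markers, such as Col1a1 and Vim, were measured at 4.79 FPKM or more in each group, with sums of 6056 in WT and 5568 in MD1. Of 4 skeletal muscle markers all were lower in MD1 (sums of 119 and 35.1 FPKM), while 6 blood markers summed to 119.6 and 105.2, 5 endothelial markers to 7.80 and 4.93, 4 epithelial markers to 19.95 and 24.8, 4 neural markers to 34.1 and 59.8 and 3 of 4 erythroid markers found in the table to 1.74 and 1.31. These sums do not give the direction of single markers. Higher in MD1 were 6 of the 10 fibroblast, 2 of the 6 blood and 2 of the 5 endothelial markers. The same held for 1 of the 4 epithelial, 2 of the 4 neural and 0 of the 3 erythroid markers. No marker found was listed at 0. The part of these differences in the results on the X was not tested.

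Of the 88 genes, 35 were informative, that is, had a share in all 4 libraries and a mean of 20 or more allele-specific reads per library. Of the other 53, 38 had no such read in any library and 15 had reads but fell short of the mean or lacked a share in a library. Among the 15, Plp2 and Porcn met the mean and lacked a share. The informative genes had a median of 337 reads per library, from 28.5 at Nudt11 to 3031 at Clcn5.

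In WT the paternal copy of the segment was close to silent. The mean share over the 35 genes was 0.0874% and 0.126% in the WT libraries, and 26.7% and 28.1% in the MD1 libraries. As group values this was 0.107% ± 0.0273 in WT and 27.4% ± 1.05 in MD1 (SD, n = 2). With reads pooled over the genes WT was at 0.213%, and the median over genes in WT was 0. No gene exceeded 0.870% in any WT library, and 21 of the 35 genes (against 44.2% of the 391 informative genes of the whole X) had no JF1 read in WT. A mean share of 10% or more was reached by 0 of the 35 genes in WT (2.05% over the X) and by 28 in MD1 (54.5% over the X), and 20% or more by 24 in MD1 (41.9% over the X).

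Between genotypes, 32 of the 35 genes rose in MD1, 0 fell and 3 did not pass, in edgeR's quasi-likelihood test of the change in allele ratio with Benjamini-Hochberg adjustment over the 391 genes at a threshold of 0.05. Over these 391 genes 74.4% rose and 0.256% fell. When each allele's column was rescaled with TMM factors, 8 of the 35 rose, 0 fell and the fitted changes of Sytl5, Lancl3, Dynlt3 and Clcn5 were below 0. The 74.4% belongs to the fit without TMM factors, and the share over the 391 genes with them is not given here. This rescaling shifted the fitted log2 changes by a median of -5.97 over the 391 genes and of 0.906 over the 35, of which 21 had no JF1 read in WT and hence fitted changes that are not measured sizes. The median rise of the 32 genes was 34.2 percentage points, and their adjusted p in edgeR ran from 2.77e-104 at Pqbp1 to 0.00145 at Kcnd1. In DESeq2 the adjusted p was 4.24e-15 at Pqbp1 and 0.029 at Kcnd1, so the size of these values depends on the method. In 33 of the 35 genes the lower MD1 value exceeded the higher WT value, as in 77.5% of the 391 genes.

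**Figure D1:**
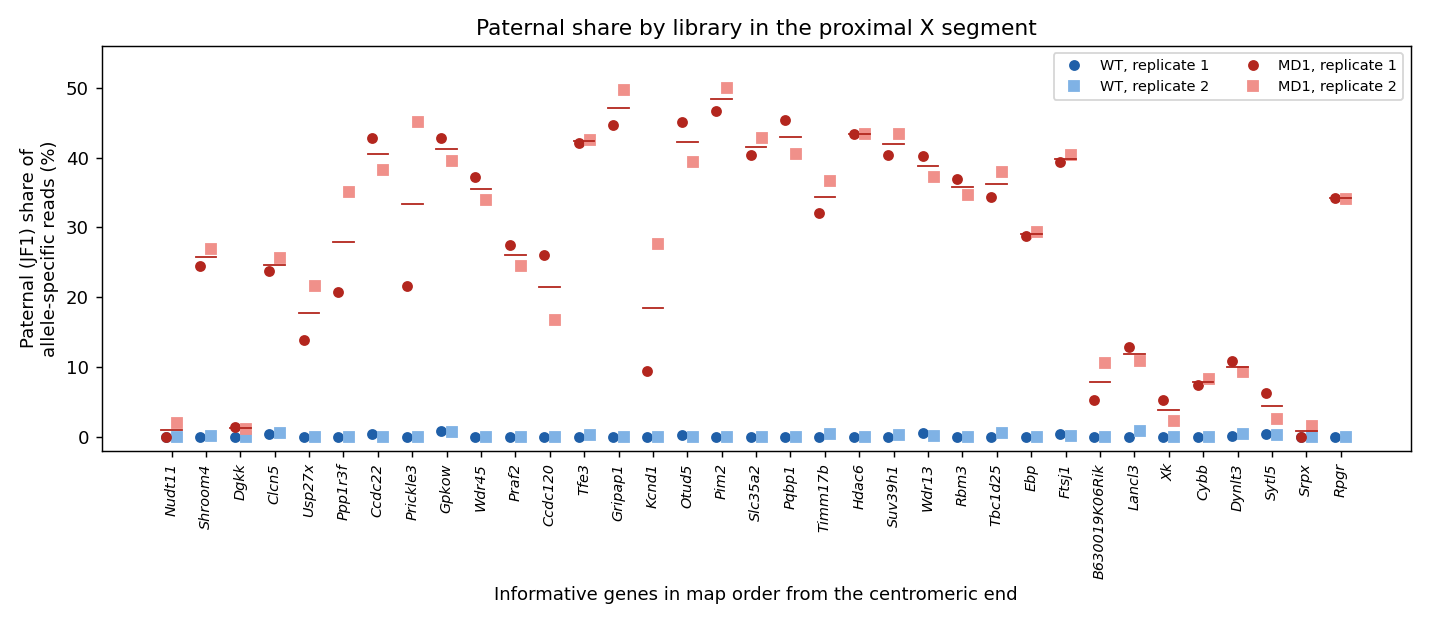
Paternal share of allele-specific reads (y axis, %) of the 35 informative genes in map order (x axis); points are single libraries and bars the mean of both MD1 libraries. WT points sit at or under 0.870%, while MD1 points are near 0 at Nudt11, Dgkk and Srpx, high from Ppp1r3f to Ftsj1 and low again from B630019K06Rik to Srpx.

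The following stretches were delimited after the values were seen, so their borders are descriptive. At the centromeric end, Nudt11 (X, 5624625 to 5631869, plus strand), which encodes a phosphohydrolase of diphosphoinositol polyphosphates, had 0% and 0% in WT, against 0% and 1.89% in MD1, with 1 JF1 read among 63 in MD1 (10 and 53 per library). Its Wilson 95% interval in MD1 was 0.281% to 8.46%, and 0 of 51 reads in WT allow up to 5.88% (3 reads of the total). Such intervals and limits cover counting error only. Dgkk (6356432 to 6525489, plus strand), a diacylglycerol kinase gene, had 0% in both WT libraries and 1.33% and 1.12% in MD1, or 3 of 253 reads. Neither gene passed (adjusted p = 0.539 and 0.156 in edgeR), and Nudt11 was too shallow to show a rise of a few points.

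Shroom4 lies between Nudt11 and Dgkk and differed from both. Shroom4 (5977263 to 6210835, plus strand), which encodes an actin-binding protein of the Shroom family, had 0% and 0.0928% in WT, against 24.5% and 26.9% in MD1. Clcn5 (6735538 to 6896484, minus strand), which encodes an endosomal chloride and proton exchanger and was the most deeply covered gene, had 0.414% and 0.473% in WT, against 23.7% and 25.5% in MD1. Usp27x (6949717 to 6952956, minus strand), a deubiquitinase gene, had 0% in both WT libraries and 13.8% and 21.6% in MD1. MD1 and WT did not overlap at any of these genes, and the adjusted p in edgeR was 1.33e-54, 1.27e-83 and 3.01e-09. The log2 change in allele ratio at Clcn5 was 6.19 ± 0.280 (SE).

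The stretch from Ppp1r3f to Ftsj1 (X, 7135688 to 7829532) held 22 informative genes, and all 22 rose (74.4% over the X). Their MD1 shares ran from 18.5% to 48.4% with a median of 39.3%, so the paternal copy gave close to as many reads as the maternal copy at the top of this range. Lowest were Kcnd1 (7400969 to 7413629), which encodes a voltage-gated potassium channel subunit, and Ccdc120 (7308840 to 7318450). Kcnd1 had 9.38% and 27.6% in the MD1 libraries on 64 and 29 reads, and Ccdc120 had 26.1% and 16.8% on 142 and 185 reads. Both genes had no JF1 read in WT, which allows up to 2.88% at Kcnd1 and 1.72% at Ccdc120. Kcnd1 lost its call without WT replicate 1 (adjusted p = 0.0540 in edgeR).

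Highest were Pim2 (7455432 to 7460558, plus strand), which encodes a serine/threonine kinase, and Gripap1 (7367119 to 7397693, plus strand), which encodes a protein of recycling endosomes. Pim2 had 46.7% and 50% in MD1 and 0% in both WT libraries (0 of 183 reads, up to 1.64%). Gripap1 had 44.7% and 49.6% in MD1 and 0% in WT (0 of 477 reads, up to 0.629%). The MD1 values of these 2 genes overlapped each other. Otud5, Hdac6 and Pqbp1, within the same stretch, were at 42.2% ± 4.01, 43.3% ± 0.00644 and 42.9% ± 3.43 in MD1 (SD, n = 2), against at most 0.217% in any WT library.

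Nuclear and RNA factors were the most even group by role. Of the 9 listed genes in the segment 7 were informative and all 7 rose (74.4% over the X, 91.4% of the segment). Their MD1 shares ran from 35.8% to 42.9%. Tfe3 (7339787 to 7352328), a transcription factor of lysosomal genes, had 0% and 0.261% in WT, against 42.1% and 42.5% in MD1. Suv39h1 (7638297 to 7651886), a histone H3 lysine methyltransferase of heterochromatin, had 0% and 0.295% in WT, against 40.3% and 43.4% in MD1. Both are factors whose own silencing state is read here, and nothing about their targets was measured. Gpkow (7274260 to 7287385), which encodes a G-patch protein of the spliceosome, had 0.835% and 0.613% in WT, the highest WT mean of the segment (0.724%), and 42.8% and 39.5% in MD1. Pqbp1 (7471645 to 7476395), a splicing-related polyglutamine-binding protein gene, had 0% in both WT libraries and 45.3% and 40.5% in MD1. Ftsj1 (7815794 to 7829532), a tRNA methyltransferase gene, had 0.313% and 0.128% in WT, against 39.3% and 40.4% in MD1. Wdr13 and the cold-inducible RNA-binding protein gene Rbm3 reached 38.7% ± 2.08 and 35.8% ± 1.60 (SD, n = 2). All these genes lie in the stretch from Ppp1r3f to Ftsj1, so role and position cannot be told apart.

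Of 12 genes of trafficking, cytoskeleton and autophagy 11 were informative and all 11 rose (74.4% over the X), with MD1 shares from 4.41% to 47.2%. Hdac6 (7507248 to 7525015), a cytoplasmic deacetylase of tubulin, had 43.3% in each MD1 library and no JF1 read among 1860 in WT. Ccdc22 (7170935 to 7182546), of an endosomal recycling complex, had 0.379% and 0% in WT, against 42.8% and 38.3% in MD1. Wdr45, an autophagy gene, and Tbc1d25, which encodes a GTPase-activating protein for Rab proteins, reached 35.6% ± 2.41 and 36.2% ± 2.53 (SD, n = 2). Prickle3 (7234505 to 7245312), of a planar polarity family, had 0% in both WT libraries and 21.5% and 45.1% in MD1, the widest gap of all 35 genes.

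Of 11 membrane and transport genes 7 were informative and all 7 rose (74.4% over the X), with MD1 shares from 3.75% to 41.6%. Slc35a2 (7461370 to 7471618), the UDP-galactose transporter gene of the Golgi, had 0% in both WT libraries and 40.4% and 42.8% in MD1. Timm17b (7476524 to 7484778), of the mitochondrial inner membrane translocase, had 0% and 0.389% in WT, against 32.1% and 36.6% in MD1. Praf2 (7305697 to 7308189), which encodes a small membrane protein of the PRA1 family, had no JF1 read among 1807 in WT and 27.5% and 24.5% in MD1. In both MD1 libraries Praf2 lay below Wdr45, its neighbour on the proximal side (37.3% and 33.8%). It lay above Ccdc120, its neighbour on the distal side (26.1% and 16.8%).

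Of 15 genes of metabolism, signalling and protein turnover 8 were informative, of which 5 rose and 3 (Nudt11, Dgkk and Srpx) did not pass. Over the X 74.4% rose, and a difference of this group from the others was not tested. Otud5 (7418957 to 7453752), a deubiquitinase gene, had 0.217% and 0% in WT, against 45.1% and 39.4% in MD1. Ebp (7762457 to 7770638), a sterol isomerase gene of cholesterol synthesis, had 0% in both WT libraries and 28.8% and 29.3% in MD1. Ppp1r3f (7135688 to 7151407), which encodes a glycogen-targeting subunit of protein phosphatase 1, had 0% in WT and 20.8% and 35.1% in MD1.

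Past Ftsj1, shares dropped. From B630019K06Rik to Srpx (X, 8469479 to 9694787) the 7 informative genes had MD1 shares from 0.794% to 11.8%, with a median of 7.82%, and 6 of them rose (74.4% over the X). Lancl3 (8777099 to 8845211), of the LanC-like family, had 0% and 0.870% in WT, against 12.9% and 10.8% in MD1. Dynlt3 (9231396 to 9240109), a dynein light chain gene with 2222 MD1 reads, had 0.102% and 0.412% in WT, against 10.9% and 9.21% in MD1, a mean of 10.05% that lies just above the 10% bound. Cybb (9012380 to 9046450), the catalytic subunit of the phagocyte NADPH oxidase, had 0% in WT and 7.45% and 8.20% in MD1. B630019K06Rik (8469479 to 8472090) had 0% in WT and 5.26% and 10.5% in MD1, and lost its call without MD1 replicate 2 (adjusted p = 0.0800 in edgeR).

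Xk (8849910 to 8890371), which encodes a membrane protein that partners the Kell antigen, had 0% in WT and 5.20% and 2.29% in MD1. Sytl5 (9462747 to 9575990), a synaptotagmin-like gene, had WT shares of 0.332% and 0.242% and MD1 shares of 6.23% and 2.58%, on 851 and 890 reads. Both rose (adjusted p = 1.98e-06 and 2.16e-10 in edgeR) although their shares stayed far under those around Otud5.

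At the distal border Srpx and Rpgr lie next to each other on the minus strand and differed. Srpx (9615103 to 9694787), which encodes a secreted protein with sushi repeats, had 0% in both WT libraries and 0% and 1.59% in MD1, or 1 of 209 reads (Wilson 95% interval 0.0845% to 2.66%). It did not pass (adjusted p = 0.433 in edgeR). Rpgr (9735342 to 9793921), a gene of the photoreceptor connecting cilium, had 0% in both WT libraries (0 of 106 reads, up to 2.83%) and 34.2% and 34.1% in MD1 (adjusted p = 1.40e-08 in edgeR). These are the last 2 informative genes inside the window. The first 2 outside it, Tspan7 (10062242 to 10173730), a tetraspanin gene, and Mid1ip1 (10294491 to 10296828), had 7.62% ± 1.35 and 16.4% ± 1.75 in MD1 (SD, n = 2), so shares varied on both sides of the bound.

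The sequences upstream of 4 genes are shown because they span the range of MD1 shares. They are the 250 bases before the RefSeq transcription start in GRCm38.p6, 5′ to 3′ on the gene's strand, with each CG dinucleotide in capitals. They are B6 reference sequence, and their coordinates belong to another build than the mm9 positions above. Pim2 (chrX:7878056-7878305, plus strand) had the highest share, and Rpgr (chrX:10216796-10217045, minus strand, the first of 2 windows listed) and Srpx (chrX:10117641-10117890, minus strand) are the differing neighbours. Nudt11 (chrX:6047257-6047506, plus strand) had only 1 JF1 read among 63 in MD1, too few reads for a close estimate.
Pim2: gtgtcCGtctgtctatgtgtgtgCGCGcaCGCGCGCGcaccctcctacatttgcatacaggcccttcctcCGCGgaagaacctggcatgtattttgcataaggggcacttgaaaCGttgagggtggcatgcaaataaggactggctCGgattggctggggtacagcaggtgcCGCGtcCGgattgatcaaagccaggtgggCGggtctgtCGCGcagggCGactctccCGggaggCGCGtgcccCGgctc
Rpgr: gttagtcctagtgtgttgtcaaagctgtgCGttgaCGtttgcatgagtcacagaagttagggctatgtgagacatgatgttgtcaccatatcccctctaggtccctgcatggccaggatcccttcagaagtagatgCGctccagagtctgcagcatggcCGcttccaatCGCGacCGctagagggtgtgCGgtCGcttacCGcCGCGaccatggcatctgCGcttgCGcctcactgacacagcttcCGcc
Srpx: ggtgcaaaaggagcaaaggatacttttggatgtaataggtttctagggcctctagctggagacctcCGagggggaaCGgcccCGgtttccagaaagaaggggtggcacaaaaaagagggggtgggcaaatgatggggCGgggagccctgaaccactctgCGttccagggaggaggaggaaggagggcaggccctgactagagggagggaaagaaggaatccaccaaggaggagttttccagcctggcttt
Nudt11: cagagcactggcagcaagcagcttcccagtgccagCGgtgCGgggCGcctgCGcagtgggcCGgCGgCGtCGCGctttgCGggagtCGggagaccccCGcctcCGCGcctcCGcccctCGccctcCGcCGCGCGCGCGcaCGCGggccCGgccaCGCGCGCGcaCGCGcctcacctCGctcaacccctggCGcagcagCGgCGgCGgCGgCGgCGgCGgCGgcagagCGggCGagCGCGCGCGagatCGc
They hold 22, 15, 5 and 48 CG dinucleotides, so the window richest in CG belongs to Nudt11 with a share of 0.943%, from 1 JF1 read, and the poorest to Srpx with 0.794%, also from 1 JF1 read. Over the 32 informative genes with a window in the table, the CG count had a median of 11.5 (from 1 to 48). Its Spearman correlation with the MD1 share was 0.10, and it was 0.21 over 314 informative X-linked genes. Both values are given as a description across genes that share libraries. The letters GGGCGG, a GC box, occurred on either strand in 16 of the 32 windows (50%), in 57.3% of 314 informative X-linked genes and in 32.7% of all 32851 windows. The core promoter box TATAAA occurred in 2 (6.25%, against 7.32% and 12.4%), and CCATNTT, the core of the YY1 motif, in 4 (12.5%, against 11.5% and 12.4%).

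Shares in MD1 were higher where genes lay close together. The number of other genes of the table within 50 kb and the MD1 share had a Spearman correlation of 0.74 over the 35 genes and 0.43 over the 391 informative X-linked genes. Counting only neighbours at a mean FPKM of at least 1 gave 0.66 and 0.38. With WT FPKM the correlation was 0.49 over the 35 genes and 0.37 over the 391. With the mean number of allele-specific reads it was 0.46 and 0.37, while with gene span it was -0.21 in both sets. Neighbouring genes count each other and come from the same libraries, so these values describe the segment and carry no test. Pim2, Otud5 and Slc35a2 each had 8 neighbours and shares of 41.6% to 48.4%. Clcn5 had 0 neighbours and 24.6%, Cybb and Dynlt3 also had 0 and were at 7.82% and 10.05%, and Rpgr and Srpx both had 2.

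**Figure D2:**
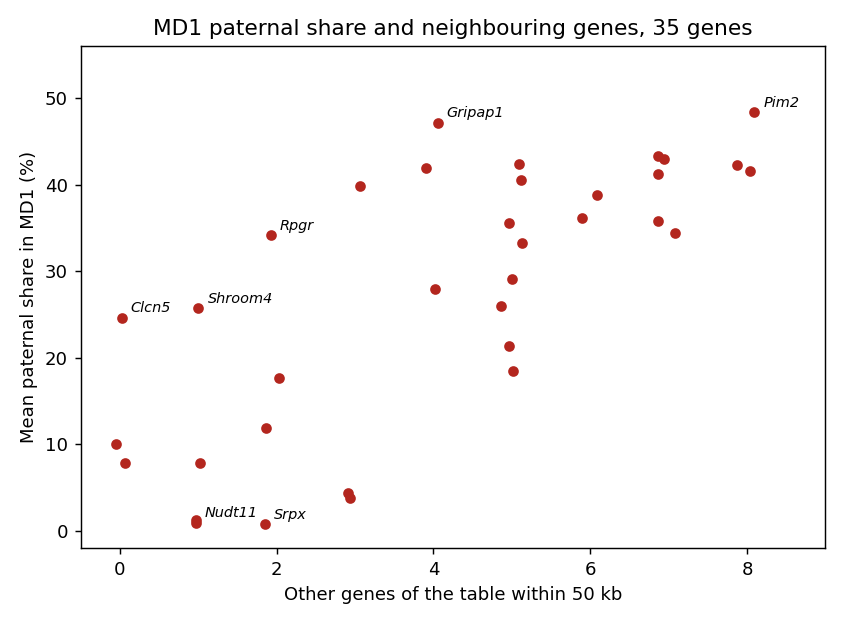
Mean MD1 paternal share (y axis, %) against the number of other genes of the table within 50 kb (x axis, with a small random offset) for the 35 informative genes. Genes with 4 or more neighbours sit at 18.5% to 48.4%, while those with fewer spread from 0.794% to 39.8%.

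The MD1 libraries gave similar shares gene by gene. The gap between them had a median of 2.95 points, and Wilson 95% intervals overlapped in 31 of the 35 genes. In WT they overlapped in 35 of 35, but shares at or near 0 there could hardly fail to overlap. In MD1, wide intervals at genes with few reads overlapped despite large gaps, as at Kcnd1 (18.2 points) and Ppp1r3f (14.4 points). Prickle3 had the largest gap, 23.5 points, on 79 and 91 reads. The other genes without overlap were Otud5 (5.68 points), Pqbp1 (4.85 points) and Sytl5 (3.64 points). Replicate 1 was above replicate 2 in 15 genes and below it in 20. Among 16 genes with 1000 or more MD1 reads the largest gap was that of Otud5, while Hdac6 had 0.0091 points and Dynlt3 1.69. The gap thus varied from gene to gene, and differences in share between genes were not tested.

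**Figure D3:**
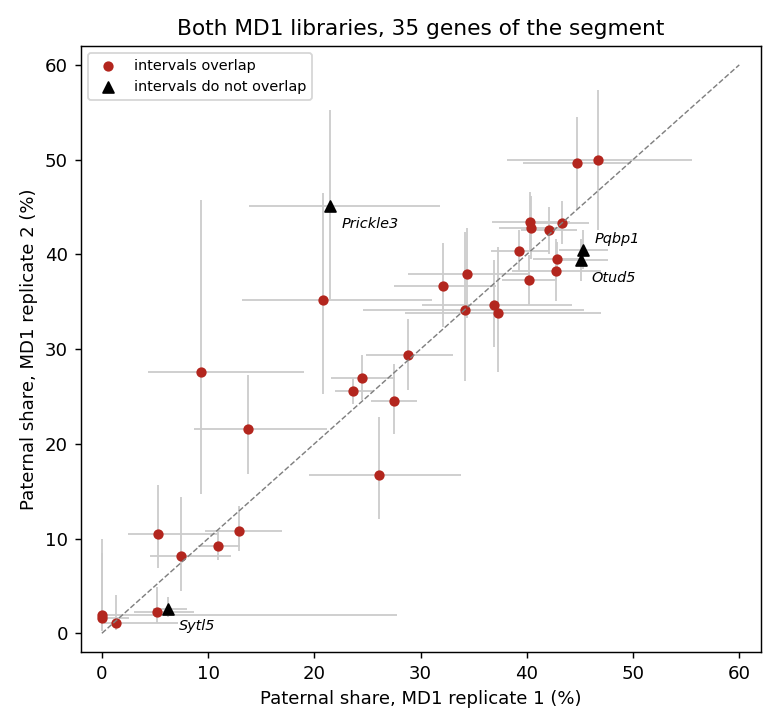
Paternal share in MD1 replicate 1 (x axis, %) against MD1 replicate 2 (y axis, %) for the 35 informative genes, with Wilson 95% intervals as grey bars and the line of equality dashed. Black triangles mark Prickle3, Otud5, Pqbp1 and Sytl5, whose intervals do not overlap.

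Set beside other parts of the X, the segment lay in the upper range of MD1 shares. Its median MD1 share was 33.3% over 35 genes, against 11.5% over the 356 informative genes of the rest of the X. The next segment, from 10 to 30 Mb, had a median of 25.1% over 30 genes, and the stretch from Hcfc1 to G6pdx had 47.5% over 18 genes. WT medians were 0%, 0.0571%, 0.0591% and 0.0446% in the order proximal segment, rest of the X, 10 to 30 Mb and Hcfc1 to G6pdx. The share of genes that rose was 91.4%, 72.8%, 86.7% and 100%. A mean MD1 share of 40% or more was reached by 10 of the 35 genes, against 14.3% of all 391. The median number of reads per gene and library was 337 in the segment and 534.8 in the rest of the X. The difference between these parts was not tested.

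**Figure D4:**
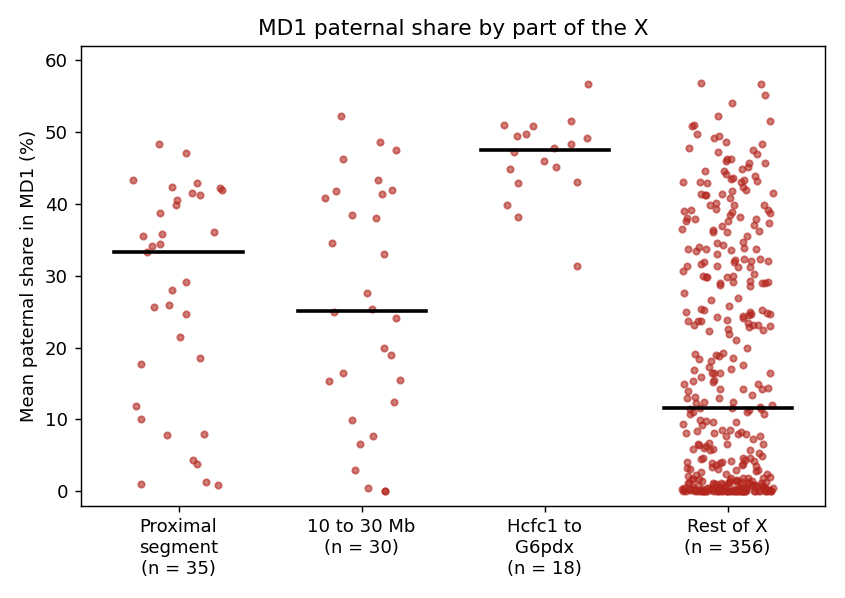
Mean MD1 paternal share (y axis, %) of single informative genes in the proximal segment, from 10 to 30 Mb, from Hcfc1 to G6pdx and in the rest of the X outside the segment, which includes both of the former; bars are medians. The proximal segment spans 0.794% to 48.4% with a median of 33.3%, and the rest of the X has a median of 11.5%.

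Total RNA of the segment was higher in MD1, as far as 1 FPKM mean per group can show. Of the 88 genes, 35 had a mean FPKM of 1 or more, and their median difference in log2 of (FPKM + 1), MD1 minus WT, was 0.42. The same median was 0.20 over 362 other X-linked genes and 0.0012 over 11001 genes outside the X, of which 50.1% were higher in MD1. Suv39h1 (12.1 to 28.1 FPKM) and Plp2 (84.2 to 173), which encodes a membrane proteolipid, were more than 2-fold higher, and no gene was 2-fold lower. Over the X, 6.8% of genes were 2-fold higher and 5.29% 2-fold lower. Gpkow went from 11.6 to 21.6 FPKM, Ftsj1 from 5.41 to 9.92 and Tfe3 from 23.7 to 38.5. Xk was lower (2.21 and 1.27) and so was Clcn5 (27.6 and 23.2). These group means have no spread, so no test was possible, and a bulk FPKM does not tell fewer cells that express a gene from less RNA per cell.

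To set the paternal gain beside the total, the FPKM of each group was divided by allele with the group's JF1 share. Over 32 informative genes that reached this FPKM, the paternal part summed to 0.565 FPKM in WT and 207.9 in MD1. The maternal part summed to 493.0 in WT and 425.7 in MD1, and the total to 493.6 and 633.6. The total was higher in MD1 in 27 of the 32 genes (66.9% of 357 genes over the X), with a median difference of 0.41 in log2 of (FPKM + 1). The maternal part was higher in 10 of them and lower in 22 (higher in 38.7% over the X), with a median of -0.15, against -0.090 over the X.

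Single genes differed in how both parts added up. At Otud5 the maternal part was 16.5 FPKM in WT and 15.9 in MD1, and a paternal part of 11.4 came on top. At Ccdc22 it was 12.3 and 12.3, with 8.21 on top. At Slc35a2 the maternal part was 19.1 and 12.7, with a paternal part of 8.97, so that the total went only from 19.1 to 21.6. Gripap1 had maternal parts of 10.2 and 6.73 and a paternal part of 6.03 in MD1, and its total went from 10.2 to 12.8. At Clcn5 the maternal part was 27.4 and 17.4 with a paternal part of 5.77 in MD1, and the total was lower, at 27.6 and 23.2. At Suv39h1 both parts were higher, with 12.04 and 16.3 maternal and 11.9 paternal in MD1. Among the 18 genes with an MD1 share of 30% or more the median difference in the total was 0.48, and among the 14 others 0.074. FPKM is a relative measure, so a lower maternal part does not show less maternal RNA per cell.

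**Figure D5:**
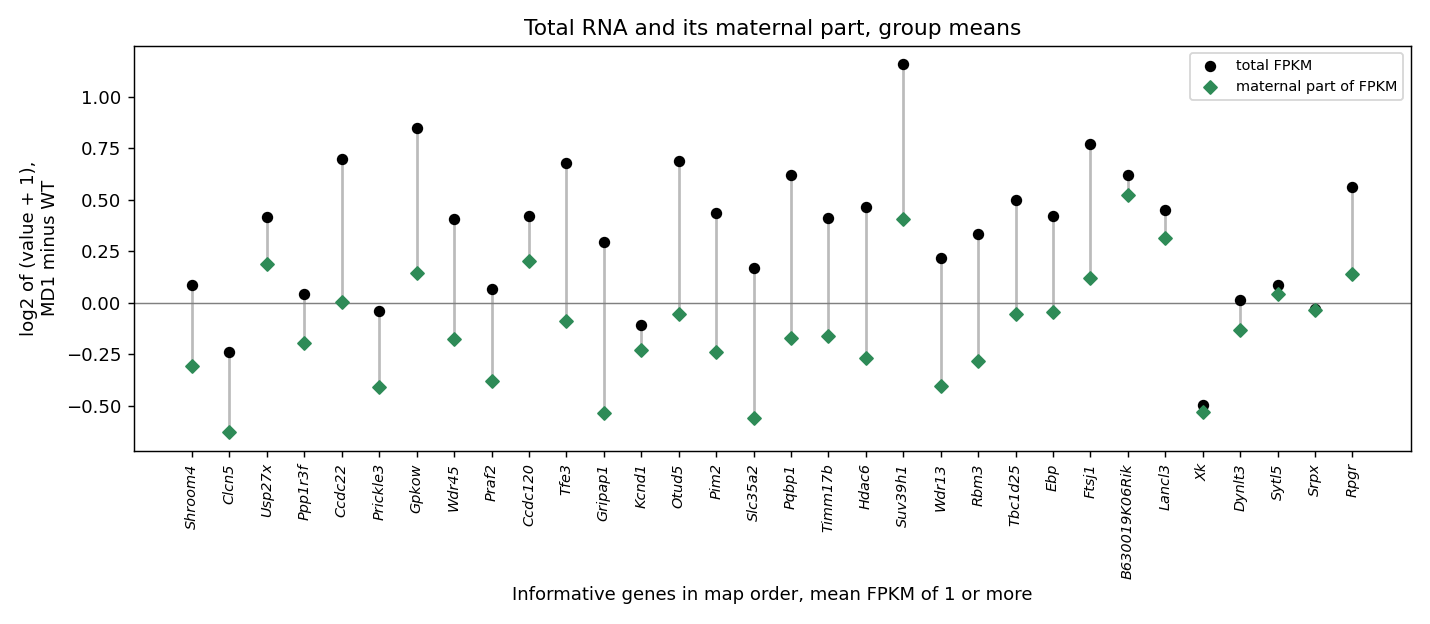
Difference between MD1 and WT in log2 of (value + 1) (y axis) for total FPKM (black circles) and its maternal part (green diamonds) of 32 informative genes in map order (x axis), from group means with no error. Circles lie above 0 in 27 genes, while diamonds lie below 0 in 22.

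Several genes of the segment could not be read by allele. The gene 2010204K13Rik (6988943 to 7000114) had 3.996 FPKM in WT and 6.63 in MD1 but no allele-specific read. Rbm3os, antisense to Rbm3 over 454 bases, had 0 of 28 reads from JF1 in WT and 3 of 28 in MD1, and missed the minimum of reads. Ppp1r3fos, Gm6787 and Pcsk1n had 1 of 32, 1 of 32 and 5 of 22 JF1 reads in MD1, with no pooled share in WT. Whether counting used strand is not given in the sources used here, so reads of Rbm3 and Rbm3os, of Ppp1r3f and Ppp1r3fos, of Ccdc22 and Foxp3 and of Prickle3 and Plp2 cannot be told apart where these genes overlap. Of the 5 blood-restricted genes, Gata1 and Foxp3 had at most 0.0270 FPKM, and Was 0.30 in WT and 0.401 in MD1. The others on this list, Cybb and Pim2, were informative and rose. Cybb had 0.563 FPKM in WT and 0.831 in MD1, and Pim2 had 2.16 and 3.26.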

How the data were processed

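Polyadenylated RNA was sequenced in 4 libraries with a stranded kit, per the labels' protocols. The authors deposited allele-specific reads as counts per X-linked gene and library, and the JF1 share as a fraction where a library had 10 or more reads. Per the file headers they also deposited summed counts, group fractions (from 20 reads on) and 1 mean FPKM per group. The submitters' processing notes list mm9, Cuffdiff and Cufflinks 2.2.1 without saying what each was used for. The aligner is not given in the sources used here, nor is the variant set. Mapping bias toward the B6 reference could lower JF1 shares in every library.

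JF1 counts were recovered as fraction times count (whole within 0.001 for 100% of values). A library under the minimum was recovered from the group's count less the other library's. Such libraries enter only the fit with no filter on reads and the values of Was, Porcn and Pcsk1n. Starts in the table count from 0 (9510 gene spans equalled RefSeq lengths with the start moved up by 1, 620 as given, of 21379 genes matched by symbol), and positions are printed 1-based.

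JF1 and B6 counts were tested with edgeR 4.0.16 (R 4.3.3), two-sided, in a model with library terms, allele and the interaction of allele and genotype. Library size was the allele-specific X total, and Benjamini-Hochberg adjustment ran over 391 informative X-linked genes (Xist left out). DESeq2 1.42.0, TMM factors, other minimums of reads (10, 50, none) and leaving out each library were alternatives. FPKM ratios used a pseudocount of 1 and a minimum mean of 1. Genes were named if informative, among the first 2 past the bound, or with 10 reads in a library or an FPKM of 1. Of the other genes on the role lists, only Gata1 and Foxp3 were given with values. Smchd1 and Xist served as checks, and Apoo was named after its values were seen. The segment's genes, role lists and marker lists were chosen with earlier results of these data known. The labels give no batch. Replicates differed beyond sampling noise (chi-square per degree of freedom of 98.1 in WT and 90.6 in MD1), so they were not counted as the same library.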

Additional observations from a re-analysis of the deposited data

Results flagged for a closer look

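Among genes of the segment outside the main comparison, 2 had paternal reads in MD1 above the level in WT, with the Wilson 95% lower limit in MD1 above the upper limit in WT. The only other such gene with JF1 counts in both groups, Rbm3os, did not meet this rule (3.71% in MD1 and 12.1% in WT). The share of genes over the X that meet it is not given here. The adjusted p-values below come from the same reads that flagged the genes and are no separate support. Was (X, 7658592 to 7667617), the gene of the Wiskott-Aldrich actin regulator of blood cells, had 13 JF1 reads among 23 in MD1 (56.5%, interval 36.8% to 74.4%). The MD1 libraries had 5 of 8 and 8 of 15 reads, and WT had 0 of 20, which allows up to 15%. Its FPKM was 0.30 in WT and 0.401 in MD1. With no filter on reads its adjusted p in edgeR was 0.00679.

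Porcn (X, 7770976 to 7783651), which encodes the acyltransferase of Wnt proteins in the endoplasmic reticulum, had 10 JF1 reads among 36 in MD1 (27.8%, interval 15.8% to 44.0%), with 2 of 8 and 8 of 28 in single libraries. WT had 0 of 44, which allows up to 6.82%, and its adjusted p in edgeR with no filter on reads was 0.00904. It lies between Ebp and Ftsj1, which reached 29.1% and 39.8% in MD1. Its FPKM was 1.73 in WT and 1.34 in MD1.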

How the results depend on the processing

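The count of 32 genes that rose was the same with DESeq2, with a minimum mean of 10 reads (36 genes tested) and with the replicate block (an allele-by-replicate term). It was 31 with a minimum of 50 (33 genes tested) and 34 with no filter on reads (38 genes tested). With TMM factors it was 8. The share of genes over the X that rose is not given for these other settings, so their counts have no background beside them. TMM fits a factor to each allele column. The fitted changes of Clcn5 (-0.0394), Lancl3 (-1.68), Dynlt3 (-0.686) and Sytl5 (-2.24) were reversed on the log2 scale, while 20 further genes lost their call. Fitted changes of the 35 genes moved by a median of 0.906. The 21 genes with no JF1 read in WT moved up and the 14 with such a read moved down. Some genes that lost their call had a higher fitted change (Wdr45 9.02 and 9.99, Rpgr 8.06 and 9.02, both with no JF1 read in WT). Others had a lower one (Suv39h1 8.36 and 2.40, with a JF1 read in WT). The cause of the lost calls was not tested. No setting called a fall. Leaving out libraries in turn, with the lone library assumed to vary like the other group's, ended the call of Kcnd1 (adjusted p of 0.0016 to 0.0540 in edgeR) and of B630019K06Rik (0.00564 to 0.0800), and gave Srpx, which was never called, changes of -0.0936 to 4.18. Replicate numbers correlated across genes in reads (0.394) and hardly in allele ratio (0.058), on only 2 pairs and with no label that ties them, and the block changed no call of the 35 genes.

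The mean MD1 share of 27.4% was 33.1% with reads pooled over genes, 31.4% as a median and 28.5% with a minimum of 50 reads. In WT it was 0.213% with pooled reads and 0 as a median. Without the 6 informative genes that overlap another gene, a choice made after seeing the data, it was 27.3% in MD1. The bound for paternal expression at 5%, 20% or in both libraries gave 30, 24 and 26 genes in MD1. The median FPKM difference was 0 with no filter on FPKM, since most of the 88 genes are at or near 0, and 0.45 with a pseudocount of 0.1.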

Other observations

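Plp2 (X, 7245242 to 7248404) was among the most abundant RNAs of the segment, with 84.2 FPKM in WT and 173.2 in MD1, yet allele-specific reads were given in WT replicate 1 alone. That library had 1225 reads, none from JF1, and the other 3 libraries had 0. Over the X, Plp2 and Apoo (185 and 252 reads in WT, 0 and 0 in MD1, with 3.76 and 5.42 FPKM) were the genes with 100 or more reads in a library and 0 in another. Allele-specific reads therefore do not follow expression in each library at these genes.

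Allele-specific reads of Praf2 were 1436 and 371 in WT and 1631 and 522 in MD1, higher in replicate 1 of both groups, while its MD1 shares were 27.5% and 24.5%. Those of Dgkk were 176 and 54 in WT and 75 and 178 in MD1.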
